A study of Mus musculus with 12 samples.

Results

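The neuregulin and ErbB receptor genes are 8 mouse genes that were followed through 2 deposited lists of transcription factor binding regions: the ligand genes Nrg1, Nrg2, Nrg3 and Hbegf and the receptor genes Egfr, Erbb2, Erbb3 and Erbb4. A region (peak) was taken as a member's when the authors had named that gene as its nearest, which gave 21 of the 30534 Meis1 peaks and 10 of the 22284 Hoxb13 peaks. All 8 genes had at least 1 peak in 1 of the lists. They were read against all 21883 protein-coding genes that a RefSeq gene table places on chromosomes 1 to 19, X and Y.

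The lists come from chromatin immunoprecipitation and sequencing (ChIP-seq), which recovers the DNA held by a protein with an antibody against it. The tissue was heart ventricle of CD-1 mice at postnatal day 15, and the labels name no altered gene or treatment. The 12 libraries form 4 groups of 3: precipitates with an antibody to Meis1, their inputs (chromatin without precipitation), precipitates with an antibody to Hoxb13, and their inputs. Each deposited list covers the 3 libraries of a factor with no value per library, so no spread between hearts could be computed, no test was possible, and depth per library is unknown. The labels describe the source as heart extract, in which many cell types are mixed, and how many cells carried a peak cannot be told apart from how often each cell carried it. All 6 cardiomyocyte, 4 endothelial and 4 fibroblast marker genes checked had a peak of each factor, where 38.2% of all genes had a Meis1 and 44.4% a Hoxb13 peak. A Meis1 peak was at 1 and a Hoxb13 peak at 2 of 3 smooth muscle markers, at 1 and 2 of 5 Schwann cell and neuronal markers, and at 0 and 1 of 3 leukocyte markers. A peak does not measure how many cells of a type were present.

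Neuregulins are growth factors of the epidermal growth factor (EGF) family that are mostly made as membrane-bound precursors and bind the receptor tyrosine kinases ErbB3 and ErbB4. ErbB2 has no known ligand of its own and signals as the partner of the other receptors, while ErbB3 has little kinase activity and relies on such a partner. In the heart, neuregulin 1 from endothelial cells acts on ErbB4 and ErbB2 of cardiomyocytes and is needed for trabeculae to form, and the pathway remains tied to growth and survival of the muscle after birth. Meis1 and Hoxb13 are homeodomain transcription factors known for their part in the cell cycle withdrawal of cardiomyocytes after birth.

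Promoter sequence is shown for a pair of receptor genes on the same chromosome, of which the start of Erbb2 lay inside a Hoxb13 peak and the start of Egfr inside no peak of either list. The letters are those of RefSeq on GRCm38.p6, the assembly known as mm10, 5′ to 3′ on the gene's strand, with each CpG in capitals. The Erbb2 stretch is the part of that peak upstream of the start site, chr11:98412266-98412483, and the Egfr stretch is the 250 bases before its start, chr11:16751953-16752202.
Erbb2: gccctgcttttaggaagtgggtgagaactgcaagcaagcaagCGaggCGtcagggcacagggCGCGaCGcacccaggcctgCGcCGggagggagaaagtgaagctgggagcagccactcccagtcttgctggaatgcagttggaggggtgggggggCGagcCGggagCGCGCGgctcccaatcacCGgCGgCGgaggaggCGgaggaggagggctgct
Egfr: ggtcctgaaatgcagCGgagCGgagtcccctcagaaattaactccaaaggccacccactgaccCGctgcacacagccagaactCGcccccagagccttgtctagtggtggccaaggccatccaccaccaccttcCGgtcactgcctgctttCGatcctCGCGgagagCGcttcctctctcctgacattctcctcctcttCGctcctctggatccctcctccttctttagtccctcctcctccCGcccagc
The Erbb2 stretch of 218 bases holds 16 CpG at a GC content of 68.3%, and the Egfr window holds 11 CpG at 60.8%. The full 250-base window of Erbb2 also had 16 CpG, more than 66.0% of the 17491 promoter windows in the table, at a GC content of 66%. Across those windows the median was 10 CpG and 55.2% GC. The 4229 windows that overlapped a Hoxb13 peak had a median of 19 CpG and 62.8% GC, against 6 CpG and 52.4% in the other 13262. The CpG count of Erbb2 lay between these medians, and its GC content of 66% lay above both. Among the members, CpG count did not follow the presence of a peak. The Nrg3 window had 27 CpG at 72.4% GC and that of Erbb4 12 CpG at 54%, and neither overlapped a peak of either list.

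Letters of known binding motifs were searched on both strands in the windows of the 4 members that the table holds (Nrg3, Egfr, Erbb2 and Erbb4): TGACAG for Meis factors, TGATNNAT and, contained in it, TGATTTAT for Meis with Pbx or Hox partners, and CCAATAAA and CTCGTAAA for Hoxb13. None of the 4 windows held any of these letters. Not all of them lay upstream of the RefSeq start used elsewhere here. The Erbb4 window, 69108060 to 69108309, was inside the gene body, which starts at 69108576 on the minus strand. The Nrg3 window, 39473089 to 39473338, spanned the start at 39473235. Of all windows, 15.5% held TGACAG, 7.03% TGATNNAT, 0.80% TGATTTAT, 0.989% CCAATAAA and 0.109% CTCGTAAA, so a window without them is the usual case. In the 941 windows that overlapped a Meis1 peak the share with TGACAG was 35.9%, against 14.3% in the others, while the shares with TGATNNAT (3.08% against 7.25%) and TGATTTAT (0.213% against 0.834%) were lower there than in the others. In windows that overlapped a Hoxb13 peak CCAATAAA was in 1.11% against 0.950% of the others and CTCGTAAA in 0.0473% against 0.128%. Base composition differed between these windows, as given above for Hoxb13, and its part in the shares was not tested.

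Both factors had peaks at 6 of the 8 genes, but not at the same 6. Meis1 peaks were assigned to Nrg1, Nrg2, Nrg3, Hbegf, Egfr and Erbb4, against 38.2% of all protein-coding genes with one. Hoxb13 peaks were assigned to Nrg1, Nrg2, Hbegf, Egfr, Erbb2 and Erbb3, where 44.4% of all genes had one. Thus by the authors' names Nrg1, Nrg2, Hbegf and Egfr had peaks of both factors (23.9% of all genes), Nrg3 and Erbb4 of Meis1 alone, and Erbb2 and Erbb3 of Hoxb13 alone, while 41.3% of all genes had neither. By position in the locus, defined below, Nrg3 also had 14 Hoxb13 peaks, and 5 members had peaks of both. The share over all genes with both is not given for that counting. These shares over all genes include many small genes, and the members are mostly large.

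The locus of a gene was taken to run from its body into 0.5 of the distance to the next protein-coding gene on either side, and its size bears on how many peaks a gene receives by nearest-gene assignment. The loci ran from 30.9 kb for Erbb2 to 2392 kb for Nrg3, with a median of 263 kb against 46.7 kb over all genes. A count expected from locus size was therefore fitted over all genes, separately for each list. Against it the members together had fewer Meis1 peaks than their size would give, 21 where 54.0 were expected, and 10 Hoxb13 peaks where 13.1 were expected. For Hoxb13 the direction turned when peaks were counted by position in the locus in place of by name (26 where 18.6 were expected), and for Meis1 it did not (58 where 83.8 were expected). Only Hbegf, among the members, reached 2 times its expected Meis1 count (19% of all genes did), and no member did for Hoxb13 (14.6% of all genes). With the gene body alone as locus size the Meis1 ratio of Hbegf was 1.6 and no member reached 2 times. The median ratio of observed to expected was 0.29 for Meis1 and 1.08 for Hoxb13 over the members, and 0 for both over all genes, most of which had no peak.

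**Figure D1:**
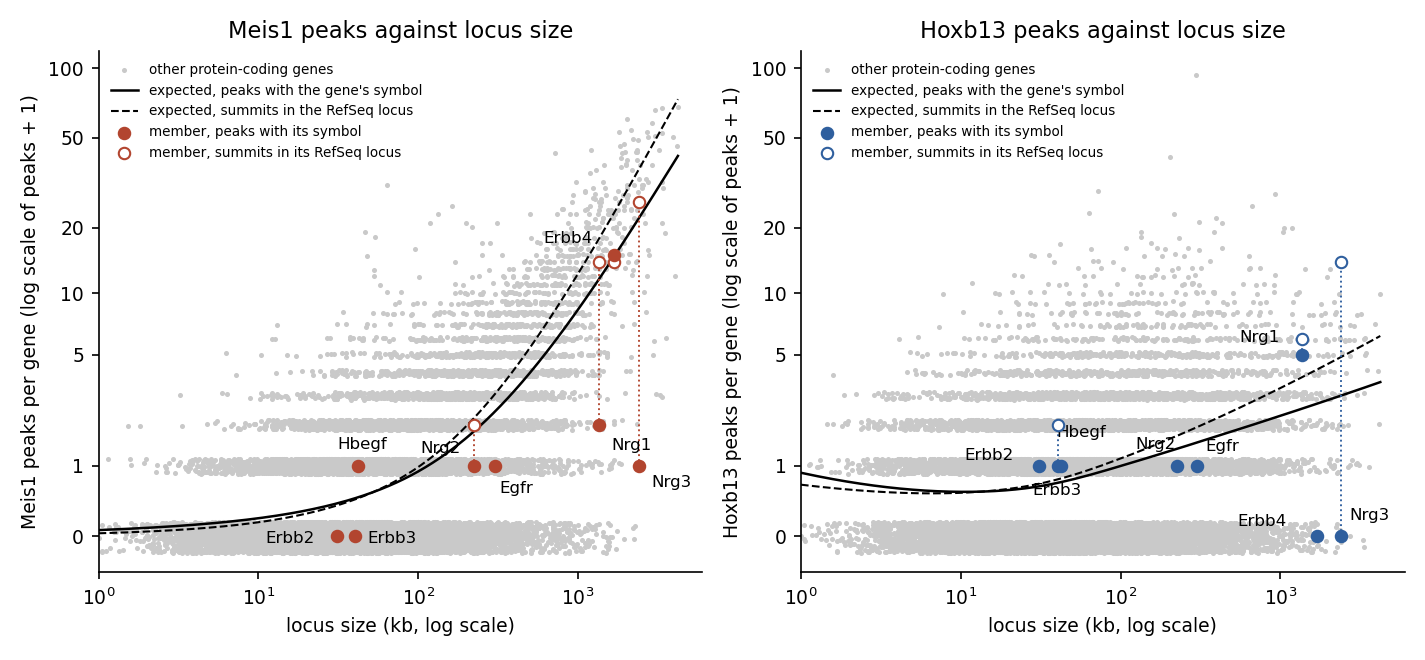
Peaks per gene (log axis of the count plus 1) against locus size (kb, log axis) for each factor, with other protein-coding genes in grey, spread slightly so that equal counts can be seen, and members as filled points by the authors' names and open points by summits in the RefSeq locus. The solid and dashed lines give the expected counts of these countings. Erbb4, with 15 Meis1 peaks by name, lies on the solid line, while Nrg1 with 2 and Nrg3 with 1 lie far below it.

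Nrg1 encodes the neuregulin that acts on cardiomyocytes and was the member with the most Hoxb13 peaks. Its body spans 1084 kb on the minus strand of chromosome 8, from 31807452 to 32891609. The 5 Hoxb13 peaks had strengths, the authors' deposited signal per peak, of 18.2, 17.9, 18.1, 19 and 27.0, where the list's median was 21.4. Most were thus among the weaker of the list, and only the strongest, at 32044735 to 32045130, exceeded that median. The count was 1.99 times the 2.51 expected (exact Poisson 95% interval 0.65 to 4.64, counting error only), an interval that includes 1. The ratio was 3.29 when only peaks within 100 kb of a start site in the authors' annotation were counted (4 where 1.22 were expected). It was 2.33 against the mean of similar-sized genes, which here are those of the largest 20th of loci. That 20th begins at 510 kb, while the Nrg1 locus is 1355 kb. All 5 peaks lay 847 to 1118 kb downstream of the RefSeq start site, so the start sites used there were other ones. Among the 1094 genes of the largest 20th of loci, 14.7% had as many Hoxb13 peaks.

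Meis1 was sparse at Nrg1 by the authors' naming. It had 2 peaks, of strength 15.7 and 33.5, where 11.6 were expected (ratio 0.17, interval 0.02 to 0.62). The stronger lay in intron 1 of 12 of the annotated transcript, from 31981172 to 31981455, and was stronger than 85.2% of the Meis1 list. This Meis1 peak was 910 kb downstream of the RefSeq start site, and 28.0 kb from the start site in the authors' annotation. A Hoxb13 peak of strength 19, stronger than 23.0% of its list, lay over it from 31981087 to 31981482 with the summits 29 bp apart. The weaker Meis1 peak was intergenic, beyond the 3′ end of the gene and 170 kb from the nearest start site in the authors' annotation.

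Most Meis1 peaks inside the Nrg1 body carried another gene's name. By position, 13 Meis1 peaks had their summit in the RefSeq body, of which 12 had been assigned to the predicted genes Gm8179 (7 peaks) and Gm3985 (5 peaks) and classed as intergenic. Their strengths ran from 15.6 to 21.3, all below that of the intron 1 peak. Counting summits in the locus gave 14 Meis1 peaks where 17.8 were expected on the same footing (ratio 0.78, interval 0.43 to 1.32) and 6 Hoxb13 peaks where 3.79 were expected (1.58, 0.58 to 3.45). The low Meis1 count at Nrg1 therefore held by the authors' naming and not by position, where the interval includes 1.

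Nrg3, a neuregulin known mainly from the nervous system, showed the same on a larger scale. Its body covers 1108 kb of chromosome 14, from 38365102 to 39473235 on the minus strand, in a locus of 2392 kb. By name it had 1 Meis1 peak where 21.9 were expected (ratio 0.046, interval 0.0012 to 0.25), an intergenic one of strength 18.4 located 36.8 kb upstream, and 0 Hoxb13 peaks where 3.00 were expected (ratio up to 1.23). By position its locus held 26 Meis1 and 14 Hoxb13 peaks. The antisense gene Nrg3os carried 11 of the Meis1 and 10 of the Hoxb13 peaks, and the other names were 1700109I08Rik, Ghitm and LOC432842.

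By position, Nrg3 had the highest ratio of Hoxb13 peaks to the expected count among the members. The 14 peaks compare with 4.85 expected (ratio 2.89, interval 1.58 to 4.84), and 1.74% of the genes in the largest 20th of loci held as many. By this counting 14.3% of all genes reached 2 times their expected Hoxb13 count, and among the members these were Nrg3 and Erbb3. The 26 Meis1 peaks were 0.72 times the 36.1 expected (0.47 to 1.06). Inside the body were 9 of the Hoxb13 and 7 of the Meis1 peaks, all annotated by the authors to Nrg3 introns while named for other genes. The Hoxb13 strengths in the locus ran from 17.8 to 39.5 with a median of 18.2, so most were weak. The strongest lay in intron 4 of 9, from 38470397 to 38470792, and exceeded 92.4% of the list.

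**Figure D2:**
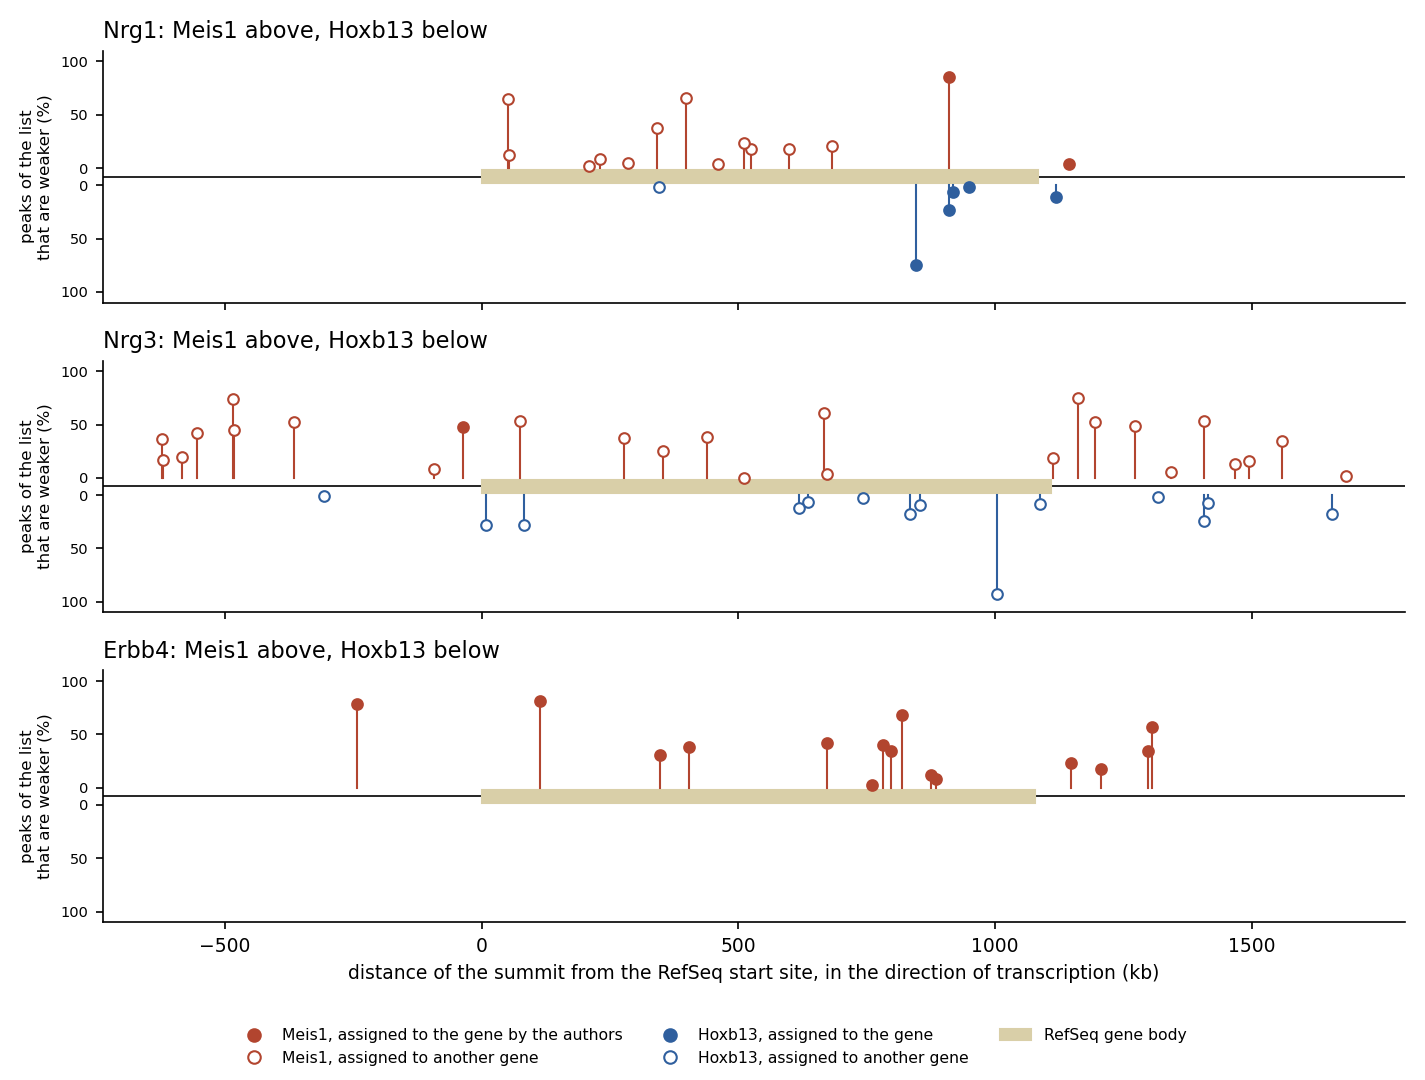
Meis1 and Hoxb13 peaks along the 3 longest members, plotted as distance of the summit from the RefSeq start site (kb), with the share of the list that is weaker (%) as height, upward for Meis1 and downward for Hoxb13. Filled points are peaks named for the gene, open points those named for another, and the bar is the RefSeq gene body. In Nrg1 and Nrg3 most peaks within the body carry other names, while all 10 Meis1 peaks in the Erbb4 body carry its own and no Hoxb13 peak is listed there.

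Nrg2, another neuregulin, had 1 peak of each factor at separate places. Its body covers 183 kb of chromosome 18, from 36014581 to 36197532, on the minus strand. The Meis1 peak, of strength 17.0, lay 23.5 kb upstream. The Hoxb13 peak, of strength 29.8 and stronger than 81.6% of its list, lay in exon 10 of 10, from 36018289 to 36018684. Against locus size the counts were 0.55 (interval 0.01 to 3.06) and 0.73 (0.02 to 4.08) times the expected. A further Meis1 peak inside the body, of strength 16.0, was named for the non-coding gene 4930471G03Rik, in whose promoter it was classed.

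Hbegf, which encodes heparin-binding EGF-like growth factor, a ligand of EGFR and ErbB4, carried the strongest member peak of each list. Both lay over its start site on chromosome 18 (gene body 36504927 to 36515805, minus strand). The Hoxb13 peak, from 36515763 to 36515923, had a strength of 89.3 and ranked 217 of 22284, above 99.0% of the list. The Meis1 peak, from 36515759 to 36516042, had a strength of 35.0 and ranked 4212 of 30534, above 86.2%. The summits were 38 bp apart, at 0.058 kb (Hoxb13) and 0.096 kb (Meis1) upstream of the RefSeq start, and the whole of the Hoxb13 peak, which was only 161 bp wide, lay within the Meis1 peak. With an expected count of 0.47 for Meis1, a single peak gives a ratio of 2.13, with an interval from 0.05 to 11.9.

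A promoter peak, meaning one classed by the authors within 1 kb of a start site, was found at Hbegf and Erbb2 among the members, shares near those over all genes. Hbegf had one of Meis1, which is 1 of 8 members (12.5%), where 8.16% of all genes did. Hbegf and Erbb2 had one of Hoxb13, 2 of 8 (25%), where 30.7% of all genes did.

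Erbb2, the receptor without a ligand of its own, had a single Hoxb13 peak and no Meis1 peak. The peak lay over the start of the gene (chromosome 11, 98412484 to 98437716, plus strand), from 98412266 to 98412661, and its upstream part is the Erbb2 sequence printed above. Its strength of 28.2 ranked 4892, above 78.0% of the Hoxb13 list, with the summit 0.02 kb upstream of the RefSeq start. The nearest Meis1 summit was 18 kb away. A locus of 30.9 kb would carry 0.64 Hoxb13 and 0.38 Meis1 peaks on average, so an absent Meis1 peak is what most genes of this size have.

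Erbb3, the receptor with weak kinase activity, likewise had a Hoxb13 peak and no Meis1 peak. It is encoded on chromosome 10 from 128567523 to 128589635 on the minus strand. The peak, of strength 20.4, lay 1.38 kb upstream of the start site in the authors' annotation, outside the promoter class, from 128590882 to 128591277. By position a second Hoxb13 peak, of strength 19.5, lay inside the gene at 128584764 to 128585159, where the authors had named the microRNA gene Mir6917. The locus then held 2 Hoxb13 peaks where 0.75 were expected (ratio 2.66, interval 0.32 to 9.60).

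Egfr, the receptor for EGF and several related ligands, had 1 peak of each factor, at separate places. Its body covers 162 kb of chromosome 11, from 16752203 to 16913907 on the plus strand. The Meis1 peak, of strength 16.0 and above only 11.5% of its list, lay in intron 4 of 15, from 16865132 to 16865415. The Hoxb13 peak, of strength 23.5, lay beyond the 3′ end of the gene, from 16922758 to 16923153. The counts were 0.41 (interval 0.01 to 2.30) and 0.66 (0.02 to 3.66) times the expected.

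**Figure D3:**
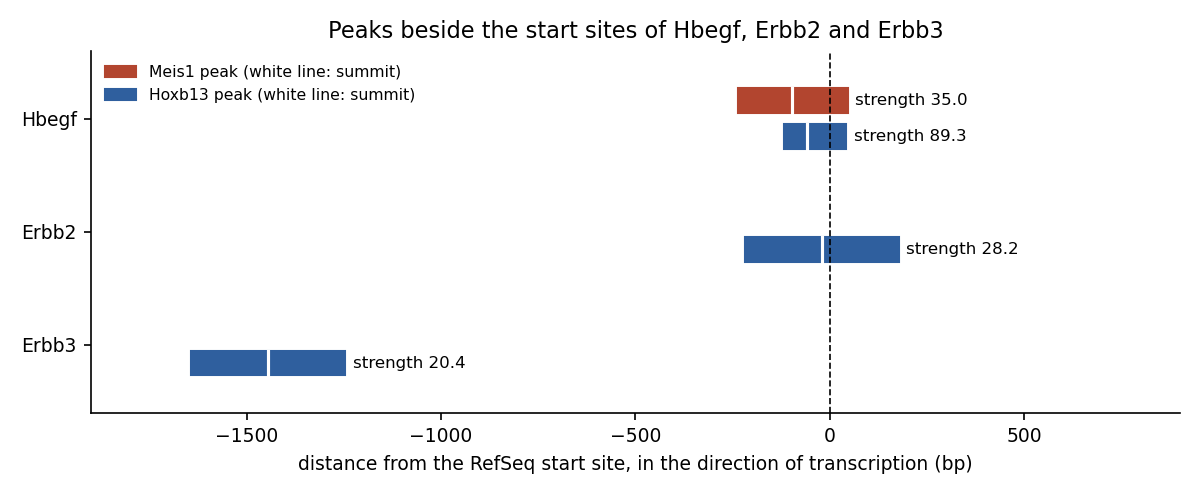
Peaks beside the RefSeq start sites of Hbegf, Erbb2 and Erbb3, as distance from the start in the direction of transcription (bp), each bar spanning a peak with a white line at its summit and its strength beside it. Peaks of both factors cover the start of Hbegf, a Hoxb13 peak covers that of Erbb2, and the Hoxb13 peak of Erbb3 lies upstream, with its summit at 1.445 kb.

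Erbb4, the neuregulin receptor of cardiomyocytes, carried 15 of the 21 Meis1 peaks and none of the Hoxb13 peaks. The body covers 1077 kb of chromosome 1, from 68031884 to 69108576 on the minus strand, in a locus of 1688 kb. The fit on locus size gave 14.8 expected Meis1 peaks (ratio 1.01, interval 0.57 to 1.67). Against the mean of the genes in the largest 20th of loci, 8.39, the ratio was 1.79, and within 100 kb of a start site Erbb4 had 0 peaks where 3.23 were expected. By name, 17.8% of the genes in the largest 20th of loci had as many. For Hoxb13, 2.69 peaks were expected (ratio up to 1.37), and 30.5% of the genes in that 20th also had 0. By position the locus held 14 Meis1 peaks where 23.4 were expected (0.60, interval 0.33 to 1.00). It again held 0 Hoxb13 peaks where 4.17 were expected (ratio up to 0.885), as did 19.2% of the genes in that 20th. The largest 20th begins at 510 kb, so it includes loci much smaller than that of Erbb4. Among the 211 genes with at least 15 Meis1 peaks, 13 (6.16%) had 0 Hoxb13 peaks.

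None of the Erbb4 peaks was close to a start site. The distances in the authors' annotation ran from 110 to 403 kb. In the gene lay 10 of them, 9 in introns and 1 in exon 16 of 27, and 5 were intergenic. The strengths had a lowest value of 15.7, a median of 17.3 and a highest of 29.1, below the Meis1 list's median of 18.7 for most. The strongest was in intron 1 of 26, from 68995386 to 68995669, above 81.5% of the list. The next, of strength 26.8, lay 244 kb upstream of the gene, from 69352024 to 69352307, and the exon 16 peak, from 68290247 to 68290530, had 21.7. The nearest Hoxb13 summit was between 335 and 1309 kb from each of these peaks.

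**Figure D4:**
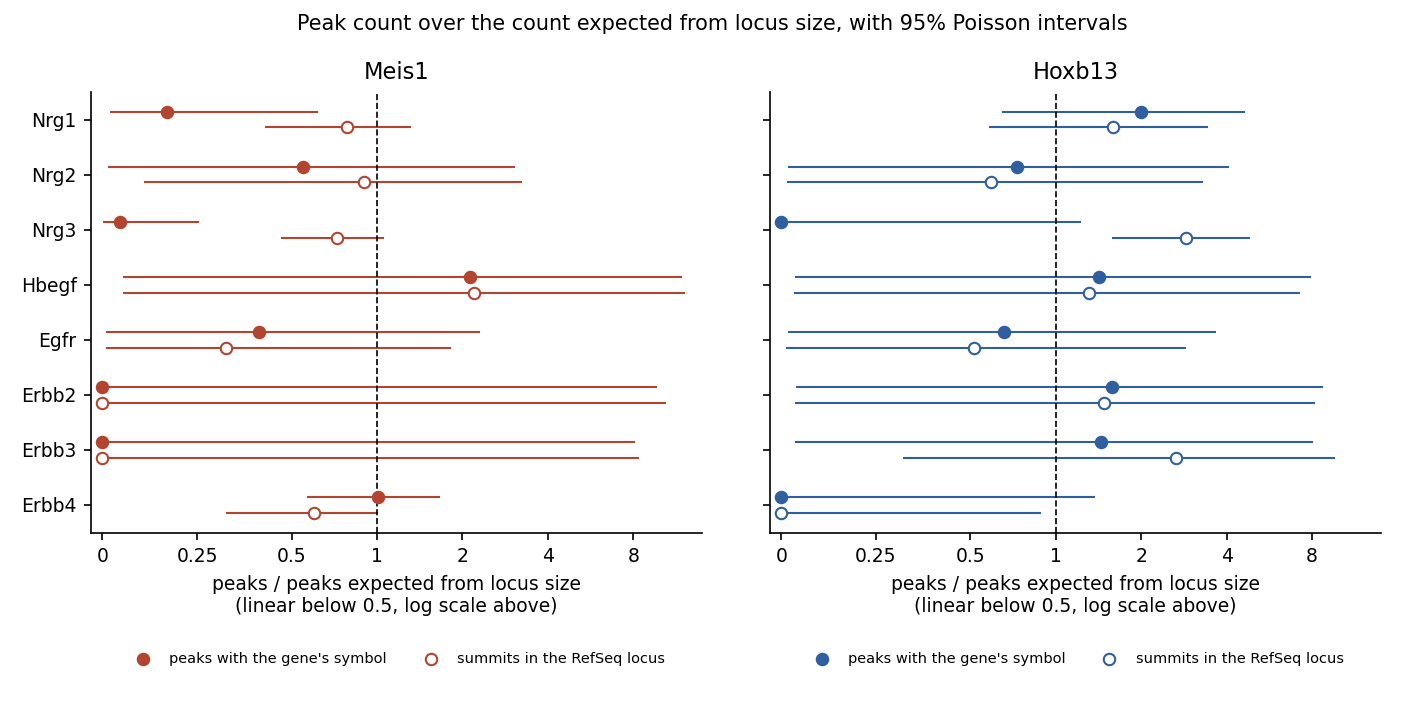
Observed over expected peaks for each member and factor, by the authors' gene names and by position in the RefSeq locus, with exact Poisson 95% intervals that cover counting error only (filled points by name, open points by position, axis linear below 0.5 and logarithmic above). Between the countings Nrg1 and Nrg3 move most for Meis1, and Nrg3 and Erbb3 for Hoxb13, while the Meis1 ratio of Erbb4 stays near or below 1.

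A larger share of peaks was named for another gene in the members' bodies than over all coding genes. Of the Meis1 peaks with a summit inside a member's body, 20 of 32 (62.5%) carried another name, against 22.8% of the 12255 peaks in all coding bodies, and for Hoxb13 11 of 16 (68.8%) against 15.7% of 13782. Nearly all of these were in Nrg1 and Nrg3. By position, 6 of 8 loci held a Meis1 peak (40.9% of all genes) and 7 of 8 a Hoxb13 peak (47.5%), with Hbegf again the only one at 2 times its expected Meis1 count (17.8% of all genes).

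Sites of both factors were found at 2 members, where 6.11% of all genes had a shared region. They were the Hbegf promoter and the region in Nrg1 910 kb downstream of its RefSeq start site. These sites are 2 of 21 Meis1 peaks (9.52%) and 2 of 10 Hoxb13 peaks (20%), where 5.54% and 7.93% of the lists overlapped the other. The 6.11% of all genes was not related to locus size, which was 1355 kb for Nrg1 and 42.2 kb for Hbegf against a median of 46.7 kb. At Hbegf the Hoxb13 peak ranked higher in its list than the Meis1 peak did, and at Nrg1 the reverse held.

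In the authors' classes most Meis1 peaks of the members were intronic, and most Hoxb13 peaks lay outside promoters, as they did in the whole Hoxb13 list. Of the 21 Meis1 peaks 11 were intronic (52.4%, exact binomial 95% interval 29.8 to 74.3%, list 33.4%), 8 intergenic (list 54.9%), 1 exonic and 1 in a promoter (4.76%, 0.120 to 23.8%, list 6.73%). Of the 10 Hoxb13 peaks 2 were in promoters (20%, 2.52 to 55.6%, list 40.3%), 3 intronic, 1 exonic and 4 intergenic. The strongest Hoxb13 peak of Nrg1 was classed as intergenic, though its summit lay inside the RefSeq body. Since 15 Meis1 peaks belong to Erbb4 and 5 Hoxb13 peaks to Nrg1, these shares mostly describe those genes. In the stronger part of their lists, divided at the median, lay 6 of 21 Meis1 and 5 of 10 Hoxb13 peaks.

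Around the members, 74 genes of the pathway in 6 lists showed Hoxb13 at promoters more widely than the members did. A Hoxb13 peak was named for 58 of them (78.4%, against 44.4% of all genes) and a Hoxb13 promoter peak for 46 (62.2%, against 30.7%). For Meis1 these were 39 (52.7%, against 38.2%) and 7 (9.46%, against 8.16%), and 9 genes had no peak of either factor. The median locus of these genes was 90.5 kb against 46.7 kb over all genes, and the lists were chosen with results of these data known, so the counts are a description. Counts and ratios of pathway genes follow the authors' names unless stated, and counts by position can differ.

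The other EGF family ligands had more Meis1 than Hoxb13 genes, 6 and 3 of 7. These are 85.7% and 42.9%, against 38.2% and 44.4% of all genes, so the Hoxb13 share was near that of all genes. Egf itself had 3 Meis1 peaks (3.06 times the expected), 1 in its promoter where it overlapped a Hoxb13 peak, and Epgn, which encodes epigen, had 1 (2.64 times). Of the 9 genes of ligand shedding and processing 6 had a Meis1 (66.7%) and 7 a Hoxb13 peak (77.8%). Adam19, a metalloprotease that cuts neuregulin precursors, had 9 Hoxb13 peaks (8.62 times the expected), and Adam17, the main sheddase of several EGF ligands, had 3, all in promoters (3.75 times).

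The signalling genes downstream of the receptors had Hoxb13 peaks more often than Meis1 peaks. Over all genes 44.4% had a Hoxb13 and 38.2% a Meis1 peak, and the Meis1 shares here, 41.2 to 45.5%, were near the latter. Among the 17 adaptors and direct receptor partners 14 had a Hoxb13 (82.4%) and 7 a Meis1 peak (41.2%). Shc1, the adaptor that links the receptors to Ras, had 4 Hoxb13 peaks (7.27 times the expected). Stat5a, a transcription factor activated by the receptors, had 2 Meis1 peaks instead (5.74 times) and no Hoxb13 peak. Of 11 genes of the Ras and MAP kinase arm 8 had a Hoxb13 (72.7%) and 5 a Meis1 peak (45.5%), with Hras carrying overlapping peaks of both at its promoter. Of 12 genes of the PI3 kinase arm these were 10 (83.3%) and 5 (41.7%). Pik3r1, a regulatory subunit, had 13 Meis1 and 6 Hoxb13 peaks, Akt2 3 Meis1 peaks (4.94 times) and Pik3r3 5 Hoxb13 peaks (4.87 times).

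The list named negative regulators of the receptors had most genes at Hoxb13 peaks, 16 of 18 (88.9%, against 44.4% of all genes). Meis1 peaks were at 10 of 18 (55.6%, against 38.2%). The name is loose, since some of these genes, such as Dusp6 and Spry4, act further downstream, and Erbin and Muc4 are not plainly negative regulators. Lrig2 had 9 Meis1 peaks (4.67 times the expected) and 4 Hoxb13 peaks (2.86 times). Socs3, a feedback inhibitor of cytokine and receptor signalling, had 2 and 4 (3.38 and 5.0 times), and Spry4, an inhibitor of Ras signalling, also 2 and 4 (2.78 and 4.49 times). Rnf41, the ubiquitin ligase that lowers ErbB3, had 3 Hoxb13 peaks (4.39 times) and Dusp6, a phosphatase of ERK, had 6 (4.04 times). By name, both factors reached 2 times the expected count at 7 of the 74 genes (Rhbdf2, Furin, Crk, Map2k2, Lrig2, Socs3 and Spry4), where 5.54% of all genes did. By position the Meis1 and Hoxb13 counts were 2 and 2 for Rhbdf2, 0 and 2 for Furin, and 2 and 2 for Crk. They were 1 and 4 for Map2k2, 9 and 4 for Lrig2, 2 and 4 for Socs3, and 1 and 3 for Spry4. Furin, with 0 Meis1 peaks, thus did not reach 2 times by position. Neither did Spry4 for Meis1, since a locus of its size, 75.8 kb, has 0.757 Meis1 peaks expected by position. Genes with overlapping peaks of both factors included Egf, Ereg, Adam19, Cblb, Map2k2, Hras, Pik3r1, Lrig2 and Socs3. For genes of small loci the expected count is below 1, and a ratio there can rest on 1 or 2 peaks.

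**Figure D5:**
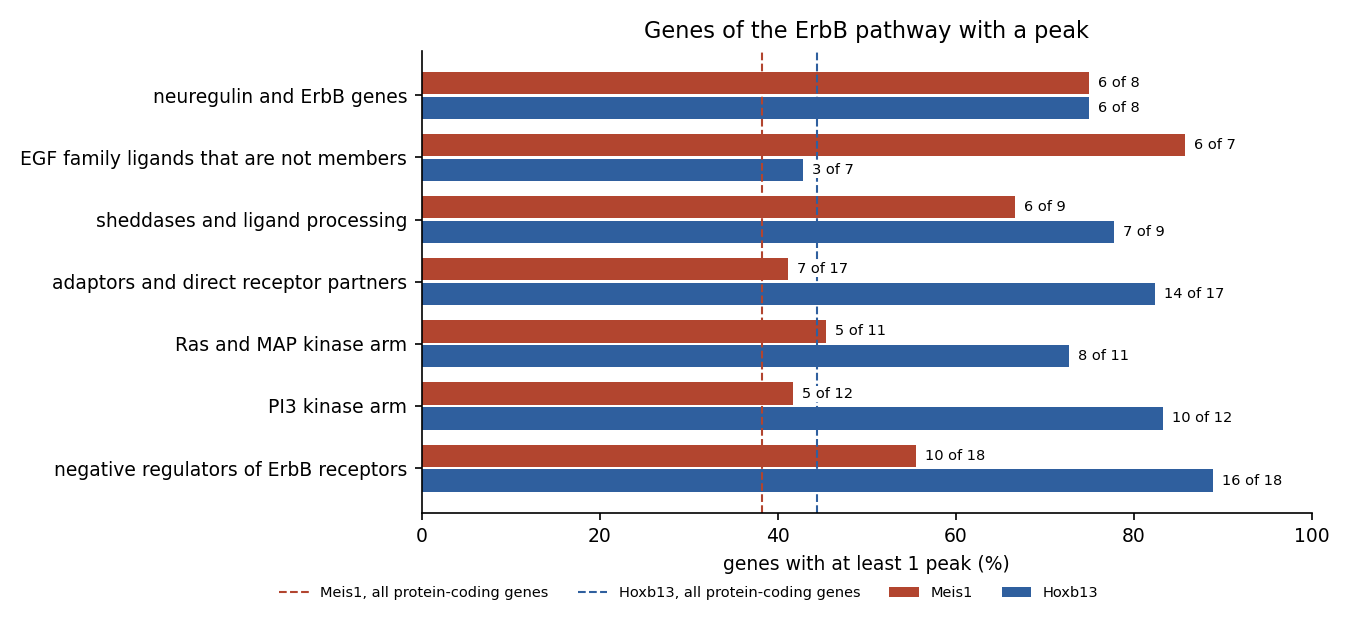
Share of genes with at least 1 peak (percent) in each pathway list and in the members, for each factor, with dashed lines at the share over all protein-coding genes. The list named negative regulators shows the highest Hoxb13 share (16 of 18) and the other EGF family ligands the highest Meis1 share (6 of 7).

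The genes most like the extremes in locus size and peak counts were looked for over 3 measures, log2 locus size and log2 of each count plus 1. Erbb4 was nearest to Kcnv1 (14 Meis1 and 0 Hoxb13 peaks), Agbl4 (15 and 0) and Cdh7 (20 and 0), at distances of 0.28, 0.36 and 0.39. Nrg1 was nearest to Rpia (2 and 3), Zfp521 (3 and 5) and Zbtb20 (2 and 3), at 0.66, 0.67 and 0.71, so its neighbours were less alike.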

How the data were processed

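Each factor has 1 annotated list of peaks from ventricle at postnatal day 15. Per the file headers the authors' deposited signal per peak, called strength here, and a score have no name beyond a column number. The signal served to describe and rank the peaks of each list on its own, and the score was left aside. Each peak's position, class, nearest gene and distance are as deposited. The submitters' processing notes name the mm10 build and, with no role or order, deepTools 1.6, ChIPseeker, Picard and Bowtie2 2.2.3. How peaks were called, at what threshold, and how libraries were combined is not given in the sources used here. Depth per library is unknown, and the input libraries entered no comparison. The protocol describes chromatin of each heart shared between both antibodies, while the titles number the factors' libraries separately (1 to 3 and 4 to 6).

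Genes came from a RefSeq table of GRCm38.p6. Expected counts came from a Poisson regression on a natural spline (4 degrees of freedom) of log locus size over 21883 genes, and similar-sized genes were those of the same of 20 equal strata (Python 3.11.15, statsmodels 0.14.6, patsy 1.0.2, scipy 1.17.1, pandas 2.3.3, numpy 2.4.6, matplotlib 3.10.9). This calculation was run on simulated counts drawn from the same fit, a check of the code. It cannot show whether the expected counts or the intervals suit the real counts. Intervals are exact Poisson (counts) or exact binomial (shares) at 95% and cover counting error only. Overlap required at least 1 bp. A call was 2 times the expected count.

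The members and lists were chosen with earlier results of these data known. Named were all members; of their peaks the strongest, nearest to a start, promoter and shared ones; of the pathway lists genes at 2 times expected for both factors, with shared regions, and up to 6 per list by the larger ratio; and the 3 genes most like the members with most peaks. Not every gene that this rule takes is reported here. The exon 16 peak of Erbb4, some Nrg1 peaks and the peaks named for other genes were singled out after their values were seen. Sequences at peaks were not read, since no genome was used here, and promoter windows of 250 bases took their place; 4 of 8 members matched. Alternatives changed the locus definition, the peaks counted, the assignment, the expected count and the overlap rule; the count inside the RefSeq body was added after seeing the data.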

Additional observations from a re-analysis of the deposited data

How the results depend on the processing

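No paired analysis was possible because the lists hold no value per library, and for the same reason no library could be left out. Of the counts over members and lists 47 alternatives stayed within 1.5 times the reported count and 19 did not. By summit in the RefSeq locus the members had 58 Meis1 and 26 Hoxb13 peaks, with 2 members at 2 times expected for Hoxb13, and in the RefSeq body (added after seeing the data) 32, 16 and 1, with 0 for Meis1. The Hoxb13 ratio of Nrg3 turned from 0 to 2.89 and 2.34 under these, since peaks named for other genes were then counted. The Meis1 ratio of Hbegf fell to 0 in the body alone, since the summit of its peak, though not the whole peak, lay upstream of the start. With the gene body as locus size 0 members reached 2 times expected for Meis1. In the stronger 50% of each list, where 28% of all genes kept a Meis1 and 29.74% a Hoxb13 peak, 3 members had a Meis1 peak and 2 had both, with 6 Meis1 and 5 Hoxb13 peaks and 2 members at 2 times expected for Hoxb13; EGF ligands then had 3 (Meis1) and 1 (Hoxb13) of 7 genes and adaptors 9 of 17 for Hoxb13. Within 100 kb of a start site 5 Meis1 peaks were left, none of them at Erbb4, and Nrg1 reached 2 times expected for Hoxb13 (1 member), as it did when the expected count was the mean of 20 strata, where the Meis1 ratio of Erbb4 was 1.79.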

Other observations

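Erbb4 lay in a long stretch without Hoxb13 peaks, a feature singled out after its values were seen. No Hoxb13 peak was listed on chromosome 1 between 67038910 and 69687379, a distance of 2648 kb, and 26 of the 22264 distances between neighbouring Hoxb13 peaks (0.117%) were as long or longer, with a median of 30.8 kb. Within the stretch were 23 Meis1 peaks, 15 of them assigned to Erbb4. It holds Erbb4 and overlaps the coding genes Cps1, of the urea cycle, and Ikzf2, a zinc finger transcription factor. Long distances across unsequenced or repeated parts of the assembly are counted among the 26, and their part was not tested.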
